A study of Mus musculus with 13 samples.

Results

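The transcripts described are those of 50 genes of G2/M and mitosis, the stretch of the cell cycle from the end of DNA replication to the separation of the daughter cells. Probe sets of a mouse expression array were taken where the platform annotation gives exactly 1 symbol and that symbol is one of the 50, and each gene was read from its brightest such set, by the mean of the 13 arrays. This gave 49 genes of the 18193 on the array with a name of their own; Ccnb1 (cyclin B1) was not analysed here. The cells were prostate progenitor/stem cells of adult wild-type mice (strain written as B1/6; 127/SVEV), 10 wk old, kept in culture to passage 22. At 70% confluency they received 1,25-dihydroxyvitamin D3 (1,25D), the hormone that activates the vitamin D receptor, at 100 nM, or vehicle, ethanol at 0.1%. RNA was taken after 6 h, or after 48 h with media renewed every 24 h, in 4 groups: vehicle 6 h (3 arrays), 1,25D 6 h (3 arrays), vehicle 48 h (3 arrays) and 1,25D 48 h (4 arrays). All groups share the wild-type genotype and the passage. Whether replicates came from separate cultures is not stated, so p-values measure the spread between these RNA samples, which may be technical.

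Entry into mitosis is driven by cyclin-dependent kinase 1 with its A- and B-type cyclins, and is helped by the polo-like and Aurora kinases. Kinetochores, built on centromeric chromatin, then attach chromosomes to spindle microtubules, and the spindle checkpoint holds back the anaphase-promoting complex (APC/C), a ubiquitin ligase, until all are attached. Most of these genes are transcribed in a wave late in the cycle through promoters bound by B-Myb, FoxM1 and the MuvB core at a cell cycle homology region, and by NF-Y at CCAAT boxes, so their summed transcript level is widely read as a measure of how many cells are dividing. In a bulk culture, fewer cells in G2/M and less RNA per cell cannot be told apart.

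The promoters of 9 genes are shown because their transcripts carry the results: Cdc20, Ndc80 and Nusap1 fell with 1,25D at 48 h, and Cdk1, Plk1, Aurka, Mad2l1, Espl1 and Birc5 fell with time in vehicle. Ccna2, which fell in both comparisons, was not in the promoter table. Each line gives 150 bases ending at the base before the annotated transcription start, 5′ to 3′ on the gene's strand, from RefSeq (GRCm38.p6). Capitals mark TTTGAA (the canonical cell cycle homology region), TTTAAA (its looser form) and CCAAT, searched on both strands, so that CCAAT of the opposite strand reads ATTGG.
Cdk1 (chr10:69352913-69353062, minus strand): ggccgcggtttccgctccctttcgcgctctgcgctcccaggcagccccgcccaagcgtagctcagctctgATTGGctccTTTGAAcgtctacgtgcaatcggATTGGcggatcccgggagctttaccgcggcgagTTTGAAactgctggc
Plk1 (chr7:122159285-122159434, plus strand): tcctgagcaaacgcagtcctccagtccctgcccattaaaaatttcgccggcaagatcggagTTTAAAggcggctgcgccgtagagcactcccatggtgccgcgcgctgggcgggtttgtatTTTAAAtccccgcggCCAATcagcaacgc
Aurka (chr2:172370571-172370720, minus strand): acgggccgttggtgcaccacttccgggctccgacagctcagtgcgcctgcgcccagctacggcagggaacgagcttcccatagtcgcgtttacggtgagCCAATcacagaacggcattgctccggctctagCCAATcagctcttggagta
Mad2l1 (chr6:66535071-66535220, plus strand): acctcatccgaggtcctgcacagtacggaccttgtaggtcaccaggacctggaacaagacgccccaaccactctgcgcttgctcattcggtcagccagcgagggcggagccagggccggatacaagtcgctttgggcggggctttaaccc
Cdc20 (chr4:118437344-118437493, minus strand): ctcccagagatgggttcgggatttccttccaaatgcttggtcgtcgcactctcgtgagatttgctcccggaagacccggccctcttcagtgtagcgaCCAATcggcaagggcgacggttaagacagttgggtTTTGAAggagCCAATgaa
Espl1 (chr15:102296143-102296292, plus strand): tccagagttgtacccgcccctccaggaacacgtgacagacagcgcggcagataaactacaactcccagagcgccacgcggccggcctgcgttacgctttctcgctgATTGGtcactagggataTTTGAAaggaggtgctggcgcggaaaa
Ndc80 (chr17:71526858-71527007, minus strand): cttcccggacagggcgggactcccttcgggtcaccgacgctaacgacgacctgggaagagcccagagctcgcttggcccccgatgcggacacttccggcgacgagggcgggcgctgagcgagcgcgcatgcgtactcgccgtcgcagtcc
Birc5 (chr11:117849087-117849236, plus strand): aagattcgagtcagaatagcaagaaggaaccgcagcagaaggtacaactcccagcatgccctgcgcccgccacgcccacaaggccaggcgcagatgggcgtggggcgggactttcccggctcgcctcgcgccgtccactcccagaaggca
Nusap1 (chr2:119618148-119618297, plus strand): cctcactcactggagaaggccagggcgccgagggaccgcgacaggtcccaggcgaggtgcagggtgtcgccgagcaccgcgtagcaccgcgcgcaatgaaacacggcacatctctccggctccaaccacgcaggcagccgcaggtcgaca
The Cdk1 promoter held TTTGAA 71 and 15 bases before the start, Cdc20 held it 18 bases before, and Espl1 27 bases before, each with a CCAAT box further upstream. Plk1 held the looser form at 89 and 29 bases, Aurka held CCAAT boxes at 51 and 19 bases and neither form of the homology region, and the windows of Ndc80, Nusap1 and Mad2l1 held none of these letters. In Birc5 the looser form lay 220 bases before the start, outside the stretch shown, and the window held neither TTTGAA nor CCAAT.

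Of the 50 genes, 41 were in the promoter table, with 44 windows of 250 bases before a start. TTTGAA stood in 36.4% of these windows and in 16% of all 32851 windows of the table, CCAAT in 77.3% and 33.8%, and both together in 34.1% and 5.55%. The looser TTTAAA stood in 13.6% of them and in 12.1% of all. The 14 measured genes with TTTGAA had a median log2 change of −0.81 with time in vehicle and −0.36 with 1,25D at 48 h, beside −0.78 and −0.29 in the 26 without it. With and without CCAAT (30 and 10 genes) the medians were −0.82 and −0.73 with time, and −0.31 and −0.31 with the hormone. Genes with and without these letters had close medians in both comparisons, which was not tested.

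The arrays had like medians over all probe sets, between 5.57 and 5.67 on the log2 scale. Replicate 1 of vehicle 6 h and replicate 4 of 1,25D 48 h stood apart by the narrowest interquartile ranges, 3.03 and 2.95, where the other 11 arrays had 3.27 to 3.46. The log2 signal of the 3′ minus the 5′ Gapdh control set was 0.12, 0.37 and 0.82 in vehicle 6 h. It was 0.14, 0.11 and 0.23 in vehicle 48 h, 0.10 to 0.40 in 1,25D 6 h and 0.11 to 0.20 in 1,25D 48 h. For actin, vehicle 6 h had 0.26, 0.67 and 0.71, and vehicle 48 h 0.38, 0.22 and 0.32. Actin ran from 0.18 to 0.71 in 1,25D 6 h and from 0.27 to 0.32 in 1,25D 48 h. The part of these differences in the results was not tested. Epithelial markers were bright: group means were 12.43 to 12.79 for Krt5, 13.95 to 14.03 for Krt14 and 13.32 to 13.78 for Krt8, on the log2 scale. Mean levels over the marker list were 9.71 to 10.4 for basal and 9.28 to 10.1 for luminal epithelium. They were 5.52 to 5.94 for stroma, 4.99 to 5.61 for immune and 4.49 to 5.14 for endothelial cells, with Col1a1, Ptprc and Pecam1 between 3.99 and 4.97 in the group means. Of the stromal list, Vim was bright (10.46 to 11.39), and 0 of 11 stromal and 0 of 7 endothelial markers were called in any comparison (1 and 0 at an unadjusted p under 0.05 with 1,25D at 48 h). Among 9 immune markers Cd68 rose at 48 h, by 1.23 with 1,25D and by 1.02 with time, and among 6 neuroendocrine or nerve markers Ncam1 rose by 0.88 with 1,25D at 48 h and Tubb3 fell by 1.57 with time. Krt8 and Krt18 fell by 0.43 and 0.34 with 1,25D at 48 h while Krt17 and Krt19 rose by 0.78 and 0.58. With time in vehicle 4 of 8 luminal markers rose, Krt19 by 2.02, Cldn4 by 1.78, Tmprss2 by 1.37 and Krt18 by 0.30, and 2 of 10 basal markers did, Krt15 by 1.69 and Trp63 by 1.14. With 1,25D at 6 h 3 luminal markers rose, Cldn4 by 1.52, Tmprss2 by 1.37 and Krt19 by 0.80. With time 50% of luminal, 20% of basal, 16.7% of neuroendocrine or nerve and 11.1% of immune markers were called, beside 18.6% of all genes. Except for luminal markers, these shares are near or below that of all genes. With 1,25D 0.852% of all genes were called at 6 h and 2.39% at 48 h. The part of these markers in the results was not tested.

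The G2/M genes were high in all 6 arrays of 6 h, lower in vehicle at 48 h and lowest in 1,25D at 48 h. The median log2 signal over the 49 genes was 9.96, 10.34 and 10.11 in vehicle 6 h, 10.18, 10.35 and 10.17 in 1,25D 6 h, 9.46, 9.33 and 9.29 in vehicle 48 h, and 9.06, 9.13, 8.96 and 8.89 in 1,25D 48 h. The 6 h groups overlapped, and neither 48 h group overlapped with them or with each other.

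**Figure D1:**
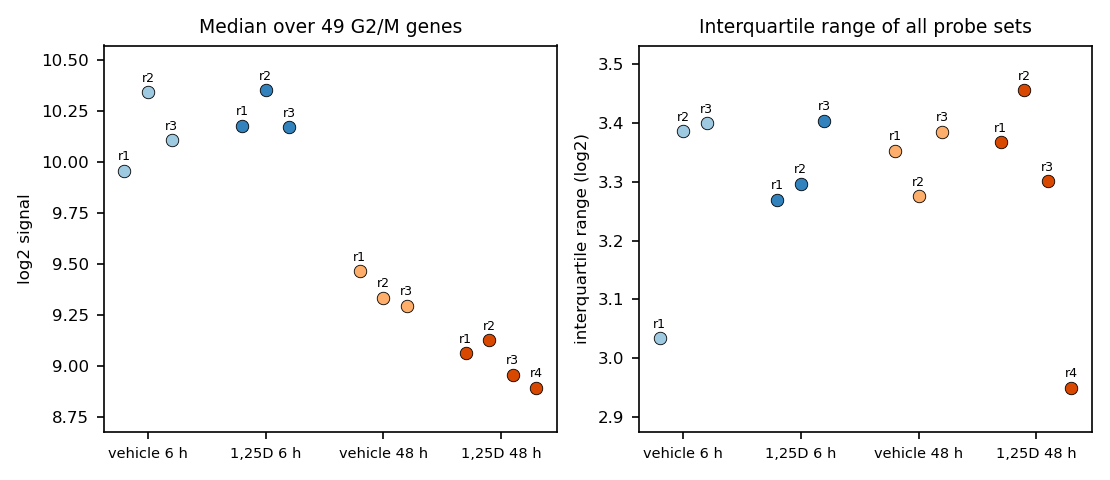
Left: median log2 signal over the 49 measured G2/M genes in each of the 13 arrays (points, r1 to r4 are replicate numbers), by group. Right: interquartile range of all probe sets of the same arrays. Arrays of 48 h lie below those of 6 h on the left, 1,25D 48 h between 8.89 and 9.13 and vehicle 48 h between 9.29 and 9.46; on the right, vehicle 6 h replicate 1 (3.03) and 1,25D 48 h replicate 4 (2.95) are the narrowest.

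With time in vehicle, 41 of the 49 genes fell and 0 rose, where 18.6% of all genes were called, 8.75% lower and 9.84% higher (limma, adjusted p under 0.05 by Benjamini-Hochberg over all probe sets). The median log2 change was −0.84, a 1.79-fold lower signal, and the values ran from −1.33 for Espl1 to 0.22 for Pttg1; over all genes the median was −0.03. In 47 genes all vehicle 48 h arrays lay below all vehicle 6 h arrays, as they did in 15.2% of all genes, and in 0 they lay above, as in 15.8%. The 8 genes not called were Pttg1, Ndc80, Cenpf, Kif11, Kif22, Nusap1, Dlgap5 and Racgap1. Among the 6852 genes with a mean signal in the range of these 49, which is the upper part of the array (7.73 to 12.4), 18.3% were called lower with time. Time and any day of processing cannot be told apart, since each time point has its own arrays.

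With 1,25D at 48 h, 4 of the 49 genes fell and 0 rose: Nusap1, Ndc80, Cdc20 and Ccna2. Of all genes 2.39% were called, 0.951% lower and 1.43% higher. The fitted change was below 0 in 49 of 49 genes, beside 50.8% of all genes, with a median of −0.29 (1.22-fold lower) and a range from −0.67 for Kif11 to −0.05 for Bub3. Unadjusted p was under 0.05 in 27 of them, beside 10.3% of all genes. In 21 genes all 1,25D arrays lay below all vehicle arrays, as in 7.11% of all genes, and in 0 they lay above, as in 5.47%. Genes of the same signal range had a median of −0.06, with 63.0% below 0 and 1.39% called lower. Without the 2 arrays that stand apart the median was −0.26, with 49 below 0, and 2 genes were called (Ndc80 and Nusap1). Without vehicle 48 h replicate 1, and without its replicate 2, 0 were called, and without 1,25D 48 h replicate 1, 3 or 4 only Nusap1 was.

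After 6 h, 1,25D changed 0 of the 49 genes by this test (0.852% of all genes were called, 0.165% lower and 0.687% higher). An unadjusted p under 0.05 was found in 1 gene, Nusap1, beside 7.01% of all genes. The changes ran from −0.25 for Cdc25c to 0.36 for Pttg1 with a median of 0.04, 32 above 0 and 17 below. Pttg1's value rests on 1 vehicle array: its 6 h vehicle signals were 12.50, 11.60 and 12.59, and those with 1,25D were 12.63, 12.59 and 12.54. All 1,25D arrays lay above all vehicle arrays in 2 genes (Nek2 and Nusap1) and below them in 1 (Cdc25c), where 5.68% and 4.51% of all genes did so.

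The response at 48 h was more negative than that at 6 h in 48 of the 49 genes, with a median difference of −0.36. It was so in 48.2% of all genes and in 60.2% of genes of the same signal range. This difference was called in 1 gene, Nusap1 (0.632% of all genes were called, 0.286% lower and 0.346% higher). For the other 48 genes a difference between the times was not shown, and 15 of the 49 had an unadjusted p under 0.05, beside 7.23% of all genes.

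**Figure D2:**
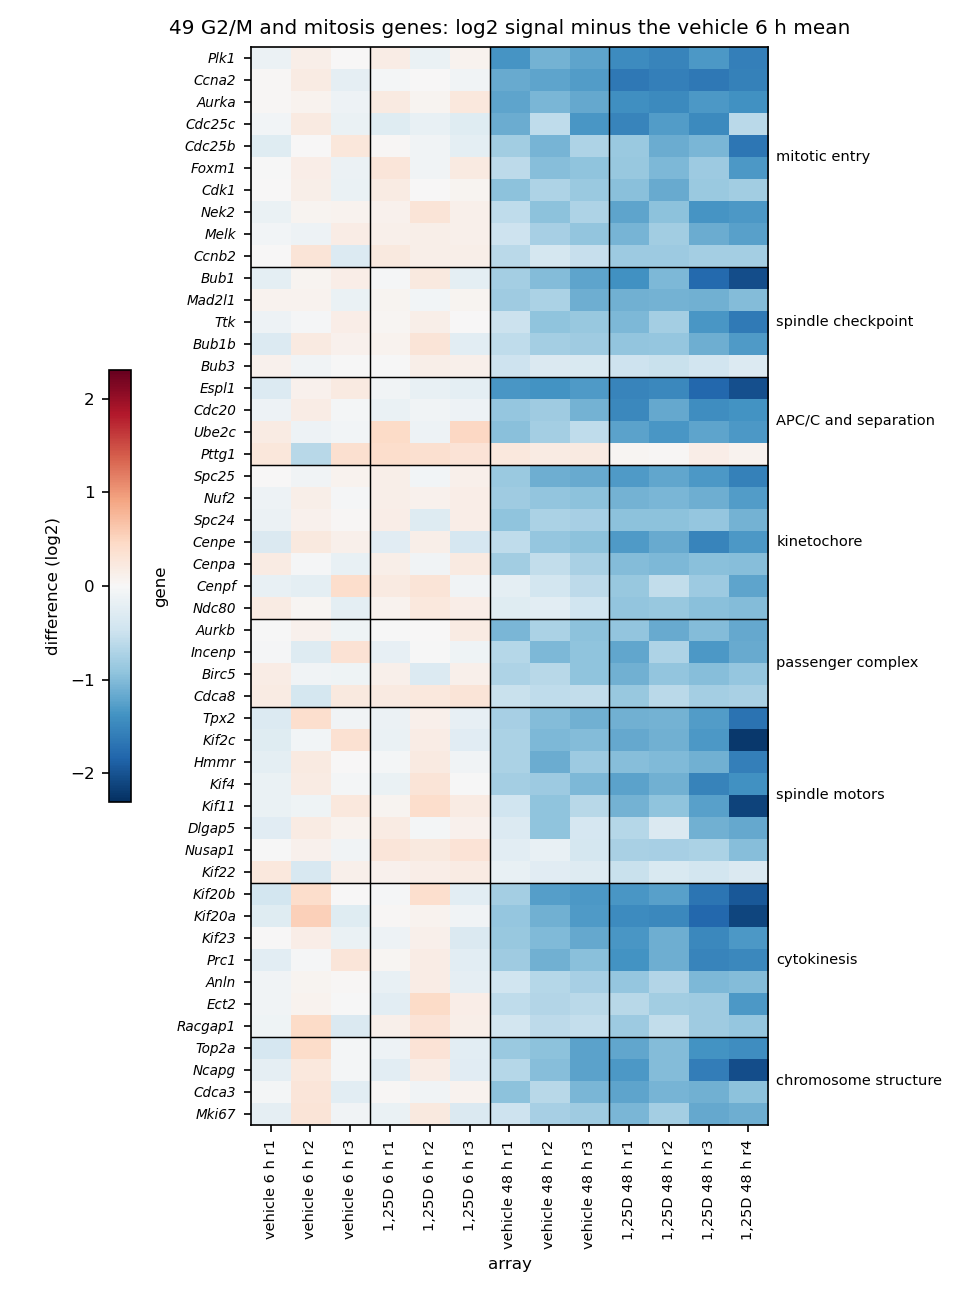
Log2 signal of the 49 measured G2/M genes (rows, grouped by role) in the 13 arrays (columns) minus the gene's mean over the 3 vehicle 6 h arrays; blue is lower and red higher. The 48 h columns are blue in nearly every row, darkest under 1,25D, with Pttg1, Kif22 and Bub3 the palest.

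**Figure D3:**
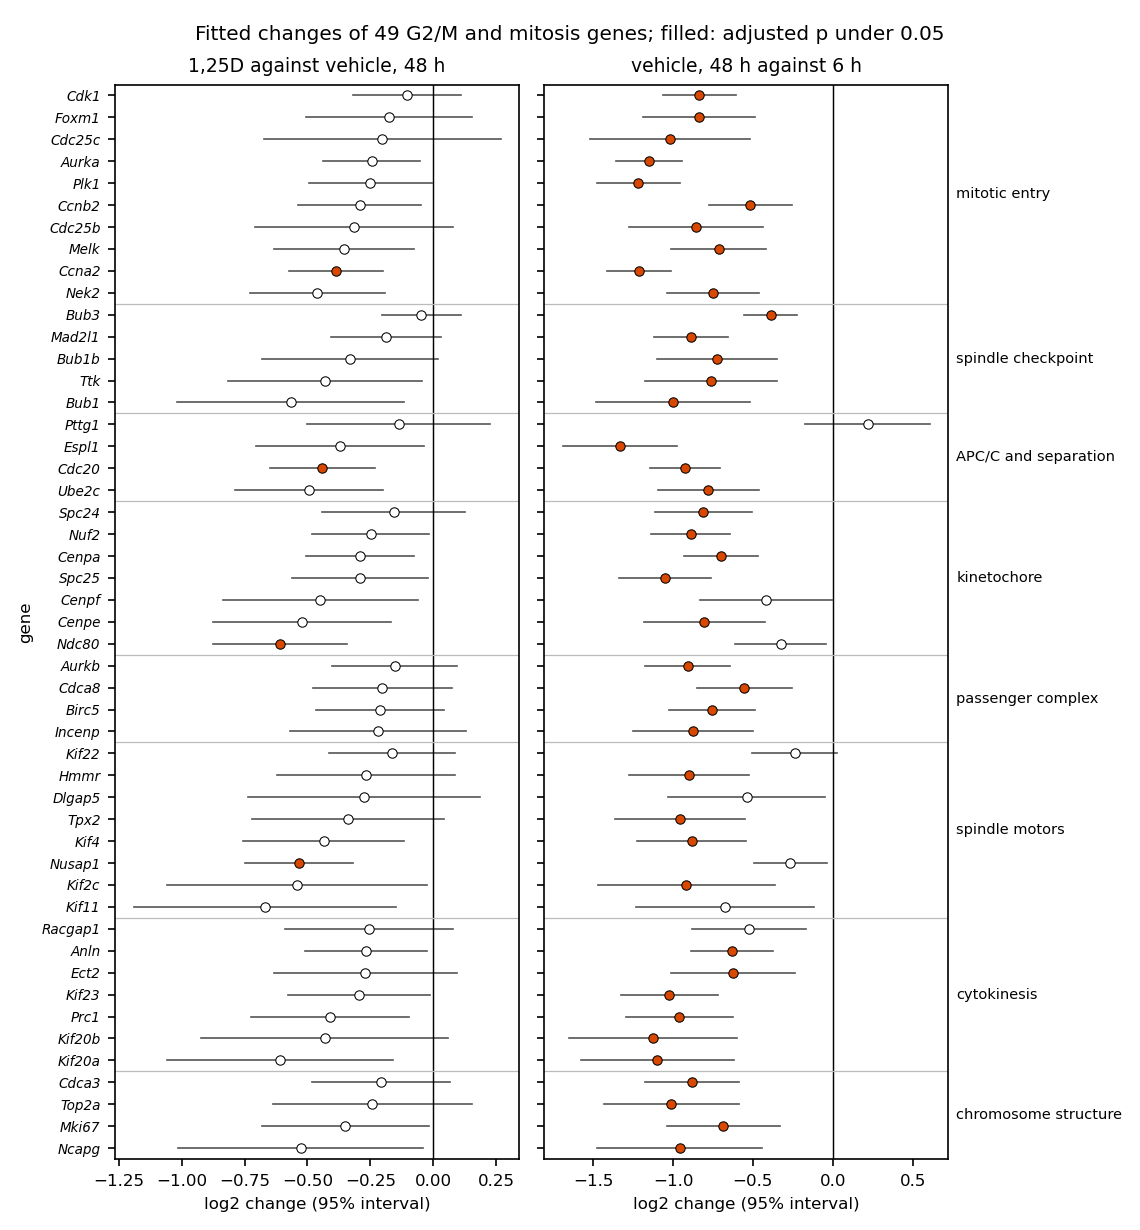
Fitted log2 change of each of the 49 genes with its 95% interval, for 1,25D against vehicle at 48 h (left) and for vehicle at 48 h against 6 h (right); filled points have an adjusted p under 0.05. On the left all 49 points lie below 0 and 4 are filled; on the right 41 are filled and Pttg1 alone lies above 0.

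The kinases, cyclins and regulators of mitotic entry were Ccna2 and Ccnb2 (cyclins A2 and B2), Cdk1, its activating phosphatases Cdc25b and Cdc25c, the kinases Plk1, Aurka, Nek2 and Melk, and the transcription factor Foxm1. With time in vehicle 10 of these 10 measured genes fell (median −0.85), from −1.22 for Plk1 to −0.52 for Ccnb2. Ccna2, which partners CDK2 and CDK1 from S phase to prometaphase, read 11.85, 12.01 and 11.63 in vehicle 6 h, 11.79, 11.83 and 11.76 in 1,25D 6 h, 10.68, 10.62 and 10.55 in vehicle 48 h and 10.19, 10.27, 10.19 and 10.28 in 1,25D 48 h. Its 1,25D and vehicle arrays overlapped at 6 h and were apart at 48 h, and both 48 h groups lay below every 6 h array. Ccna2 fell with time by 1.21 (2.32-fold, SE 0.0924, adjusted p = 1.56e-06) and with 1,25D at 48 h by 0.39 (1.31-fold, SE 0.0864, adjusted p = 0.0446). The call at 48 h is near the threshold: it was lost in 16 of 29 alternatives, and those of Cdc20, Ndc80 and Nusap1 in 15, 10 and 7 of 29.

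Cdk1, the kinase at the centre of entry, read 12.03, 12.16 and 11.87 in vehicle 6 h, 12.20, 12.03 and 12.08 in 1,25D 6 h, 11.07, 11.30 and 11.17 in vehicle 48 h and 11.06, 10.85, 11.17 and 11.22 in 1,25D 48 h. The times were apart and the treatments overlapped at both times. Cdk1 fell with time by 0.84 (SE 0.106, adjusted p = 0.000122), and its change with 1,25D at 48 h was −0.11 (95% interval −0.32 to 0.11).

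For Plk1, which acts from entry through cytokinesis, vehicle 6 h read 10.37, 10.64 and 10.52, 1,25D 6 h 10.67, 10.35 and 10.60, vehicle 48 h 9.16, 9.42 and 9.29, and 1,25D 48 h 9.06, 8.98, 9.19 and 8.93. Aurka, the centrosomal Aurora kinase, read 10.77, 10.82 and 10.62 in vehicle 6 h, 10.94, 10.80 and 10.99 in 1,25D 6 h, 9.52, 9.68 and 9.56 in vehicle 48 h, and 9.33, 9.27, 9.42 and 9.35 in 1,25D 48 h. At 48 h the treatments overlapped for Plk1 by 1 array (9.19 with 1,25D against 9.16 in vehicle) and were apart for Aurka. With time they fell by 1.22 and 1.15 (adjusted p = 1.53e-05 and 3.66e-06), whereas their changes with 1,25D at 48 h, −0.25 and −0.25, were not called (adjusted p = 0.683 and 0.413). Nek2, a centrosome kinase, had the largest change of these 10 at 48 h, −0.46 (adjusted p = 0.131), and Foxm1 had −0.18.

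**Figure D4:**
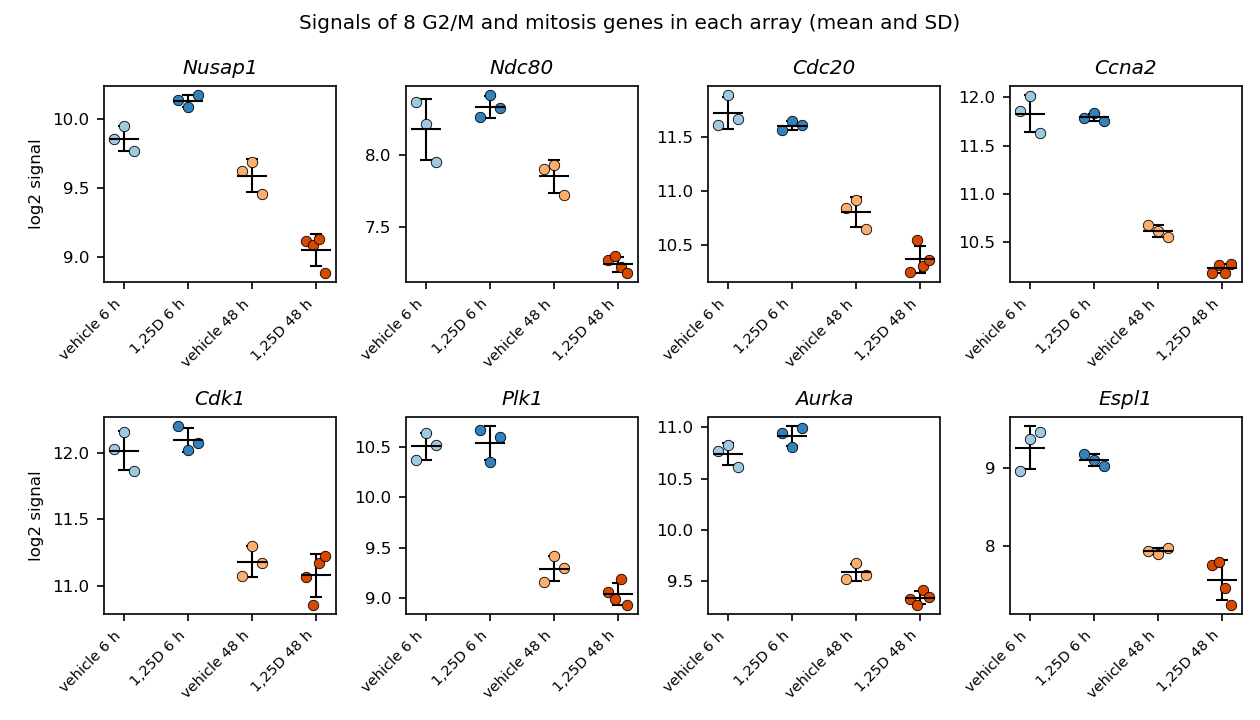
Log2 signal of 8 of the genes in each array (points), with the mean (line) and SD (bars) of each group of 3 or 4 arrays; each panel has its own axis, which does not start at 0. In Nusap1, Ndc80, Cdc20 and Ccna2 the 1,25D 48 h points lie below the vehicle 48 h points; in Cdk1 they overlap.

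The spindle checkpoint was represented by the kinases Bub1 and Ttk (MPS1), the pseudokinase Bub1b (BUBR1), their partner Bub3, and Mad2l1 (MAD2), which binds and restrains CDC20. With time 5 of these 5 fell (median −0.76), and with 1,25D at 48 h 0 of 5 were called (median −0.33, from −0.57 for Bub1 to −0.05 for Bub3). Mad2l1 read 11.31, 11.31 and 11.07 in vehicle 6 h, 11.30, 11.17 and 11.30 in 1,25D 6 h, 10.42, 10.51 and 10.11 in vehicle 48 h, and 10.12, 10.14, 10.13 and 10.23 in 1,25D 48 h. Vehicle 48 h replicate 3, at 10.11, made the 48 h groups overlap. It fell with time by 0.89 (SE 0.108, adjusted p = 8.94e-05) and changed by −0.19 with the hormone (adjusted p = 0.876). Bub3, which also belongs to mRNA-processing complexes, fell least of the 5 with time, by 0.39.

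The APC/C and chromatid separation were represented by Cdc20, the mitotic activator of the ligase, Ube2c, its ubiquitin-conjugating enzyme, Pttg1 (securin) and Espl1 (separase), the protease that securin holds inactive. With time 3 of 4 fell and with 1,25D at 48 h 1 of 4 did, and in 4 of 4 the 1,25D arrays were apart from vehicle at 48 h. Cdc20 read 11.61, 11.90 and 11.68 in vehicle 6 h, 11.57, 11.65 and 11.61 in 1,25D 6 h, 10.84, 10.92 and 10.65 in vehicle 48 h and 10.25, 10.54, 10.30 and 10.36 in 1,25D 48 h. The 3 levels were apart, with the 6 h groups overlapping. Cdc20 fell with time by 0.93 (1.90-fold, SE 0.103, adjusted p = 4.13e-05) and with 1,25D at 48 h by 0.44 (1.36-fold, SE 0.0963, adjusted p = 0.0403). Its probe set has the suffix of sets that can match several transcripts; its other 2 probe sets had changes of −0.37 and −0.37 with 1,25D at 48 h (adjusted p = 0.130 and 0.466) and both fell with time, by 0.88 and 0.84.

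Espl1 had the largest fall with time of the 49: it read 8.96, 9.37 and 9.47 in vehicle 6 h, 9.18, 9.10 and 9.04 in 1,25D 6 h, 7.93, 7.90 and 7.97 in vehicle 48 h, and 7.76, 7.79, 7.46 and 7.25 in 1,25D 48 h. Its 48 h groups were apart from each other and from 6 h. The fall with time was 1.33 (2.52-fold, SE 0.166, adjusted p = 0.000105), and the change with 1,25D at 48 h was −0.37 (adjusted p = 0.600). Its inhibitor Pttg1 was at the other end. It read 12.47, 12.42 and 12.44 in vehicle 48 h and 12.27, 12.26, 12.38 and 12.31 in 1,25D 48 h. Vehicle 48 h lay within the range of its 6 h arrays only through vehicle 6 h replicate 2, at 11.60. The other 6 h arrays read 12.50 to 12.63, above every vehicle 48 h array. Pttg1's change with time, 0.22 (95% interval −0.17 to 0.61), was not called, and its 2 dimmer probe sets had −0.43 and −0.04. Ube2c read 10.90, 11.07 and 11.27 in vehicle 48 h and 10.62, 10.53, 10.65 and 10.54 in 1,25D 48 h, apart, with a change of −0.49 that was not called (adjusted p = 0.139).

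Kinetochore and centromere genes were the 4 subunits of the microtubule-binding NDC80 complex (Ndc80, Nuf2, Spc24 and Spc25), the centromeric histone Cenpa, the motor Cenpe and the large coiled-coil protein Cenpf. With time 5 of 7 fell, all but Ndc80 and Cenpf, and with 1,25D at 48 h 1 of 7 fell, Ndc80, with 6 of 7 at an unadjusted p under 0.05. Ndc80 read 8.37, 8.22 and 7.95 in vehicle 6 h, 8.26, 8.42 and 8.33 in 1,25D 6 h, 7.90, 7.93 and 7.72 in vehicle 48 h and 7.27, 7.30, 7.23 and 7.18 in 1,25D 48 h. The 4 hormone arrays at 48 h lay together below the other 9. It fell with 1,25D by 0.61 (1.52-fold, SE 0.123, adjusted p = 0.0246), and its change with time, −0.33, was not called (adjusted p = 0.154). It has 1 probe set.

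The other 3 subunits of the same complex fell with time: Nuf2 fell by 0.89, Spc24 by 0.81 and Spc25 by 1.05, beside changes with 1,25D at 48 h of −0.25, −0.16 and −0.29, none called. Spc25 read 9.01, 8.93 and 9.09 in vehicle 6 h, 9.14, 8.94 and 9.12 in 1,25D 6 h, 8.15, 7.88 and 7.84 in vehicle 48 h and 7.71, 7.81, 7.69 and 7.45 in 1,25D 48 h, and its 6 h groups overlapped, with vehicle 48 h apart below them and 1,25D 48 h apart below vehicle 48 h. Its fall with time (SE 0.134, adjusted p = 0.000125) came from a probe set of the kind that can match several transcripts of the gene; its other, dimmer probe set had −0.34 (adjusted p = 0.416). Whether the subunits differ from each other in either response was not tested.

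The chromosomal passenger complex, which corrects faulty attachments and later guides cytokinesis, was present in full: the kinase Aurkb, the scaffold Incenp, Birc5 (survivin) and Cdca8 (borealin). With time 4 of 4 fell (median −0.82), from −0.91 for Aurkb to −0.55 for Cdca8. On these brightest probe sets, with 1,25D at 48 h 0 of 4 were called and 0 had an unadjusted p under 0.05 (−0.22 to −0.15). Cdca8's brightest set read 11.08, 10.49 and 11.12 in vehicle 6 h. Its other probe sets fell further with time, by 1.03 and 0.83 (adjusted p = 7.99e-06 and 0.000953). With 1,25D at 48 h they had −0.30 and −0.31, not called (adjusted p = 0.175 and 0.577). The other sets of Aurkb and Incenp ran from −0.25 to 0.06 with 1,25D at 48 h, none called. Birc5 read 11.89, 11.62 and 11.61 in vehicle 6 h, 11.82, 11.40 and 11.83 in 1,25D 6 h, 11.001, 11.08 and 10.77 in vehicle 48 h and 10.60, 10.80, 10.73 and 10.82 in 1,25D 48 h. Times were apart and treatments overlapped. It fell with time by 0.76 (SE 0.126, adjusted p = 0.00104) and changed by −0.21 with the hormone (95% interval −0.47 to 0.04).

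Spindle motors and microtubule-associated proteins were the kinesins Kif11 (Eg5, which pushes spindle poles apart), Kif2c (MCAK, a microtubule depolymerase), Kif4 and Kif22 (chromokinesins), the Aurora A activator Tpx2, the bundling proteins Nusap1 and Hmmr, and Dlgap5 (HURP). With time 4 of 8 fell (Kif4, Hmmr, Tpx2 and Kif2c), and with 1,25D at 48 h 1 of 8, Nusap1, did. Nusap1, which crosslinks microtubules near chromosomes, read 9.85, 9.95 and 9.77 in vehicle 6 h, 10.13, 10.08 and 10.17 in 1,25D 6 h, 9.62, 9.69 and 9.46 in vehicle 48 h, and 9.11, 9.09, 9.13 and 8.88 in 1,25D 48 h. The hormone arrays were above vehicle at 6 h and below it at 48 h, without overlap at either time. It fell with 1,25D at 48 h by 0.53 (1.45-fold, SE 0.0993, adjusted p = 0.0137), whereas its change at 6 h, 0.27 (SE 0.106, adjusted p = 0.674), and its change with time, −0.27 (adjusted p = 0.142), were not called. The difference between its responses was −0.81 (SE 0.145, adjusted p = 0.0285). Its other probe set, near the dim end at a mean of 4.87, had a change of −0.10 with 1,25D at 48 h.

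Kif11 had the lowest fitted change of the 49 at 48 h, −0.67 (SE 0.242, adjusted p = 0.395), and it was not called. Its signals were 7.96, 7.49 and 7.77 in vehicle 48 h and 7.33, 7.49, 7.17 and 6.29 in 1,25D 48 h. The array at 6.29 is replicate 4, which stands apart. Kif22 had little change at either step on its brightest probe set (−0.24 with time and −0.16 with 1,25D at 48 h, neither called), while its 2 dimmer probe sets fell with time, by 0.76 and 0.97 (adjusted p = 0.00883 and 7.4e-05). On the brightest set, vehicle 6 h replicate 2 read 10.84, beside 11.44 and 11.32 in the other vehicle 6 h arrays. Dlgap5, at −0.54 with time on its brightest probe set (adjusted p = 0.178), fell by 0.96 on its dimmer one (adjusted p = 0.0166).

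Cytokinesis was represented by the kinesins Kif20a and Kif23 of the central spindle, Kif20b, the bundler Prc1, Ect2 with its partner Racgap1, and the contractile-ring scaffold Anln. With time 6 of 7 fell (median −0.96), all but Racgap1 (−0.52, adjusted p = 0.0563; its second probe set fell, by 0.78, adjusted p = 0.00774), and with 1,25D at 48 h 0 of 7 were called (median −0.29). Kif20a read 9.53, 10.36 and 9.54 in vehicle 6 h, 9.84, 9.90 and 9.72 in 1,25D 6 h, 8.91, 8.71 and 8.51 in vehicle 48 h and 8.37, 8.33, 8.01 and 7.70 in 1,25D 48 h. The 48 h groups were apart from each other and from 6 h. It fell with time by 1.10 (SE 0.223, adjusted p = 0.00439), and its change with the hormone was −0.61 (SE 0.209, adjusted p = 0.337).

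The last 4 genes were Top2a, the topoisomerase that untangles chromatids, the condensin subunit Ncapg, the proliferation marker Mki67 (Ki-67), which coats mitotic chromosomes, and Cdca3, a trigger of mitotic entry. With time 4 of 4 fell (from −1.01 for Top2a to −0.69 for Mki67), and with 1,25D at 48 h 0 of 4 were called (median −0.30). Ncapg read 8.85, 9.30 and 9.0 in vehicle 6 h, 8.80, 9.22 and 8.79 in 1,25D 6 h, 8.39, 8.07 and 7.81 in vehicle 48 h and 7.73, 8.05, 7.46 and 7.01 in 1,25D 48 h. The 48 h groups overlapped and were below 6 h. It fell with time by 0.96 (SE 0.241, adjusted p = 0.0168) and changed by −0.53 with the hormone (adjusted p = 0.622). Mki67 changed by −0.35 with the hormone (95% interval −0.68 to −0.02, adjusted p = 0.649).

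In 19 of the 49 genes the arrays lay in 3 steps without overlap, all 1,25D 48 h arrays below all vehicle 48 h arrays and these below all 6 h arrays; 1.52% of all genes had this order. They included Ccna2, Ccnb2 and Aurka, Cdc20, Ube2c and Espl1, Ndc80, Nuf2, Spc25, Cenpa and Cenpe, and Kif11, Kif20a, Nusap1 and Prc1. In 47 genes all 1,25D 48 h arrays lay below all 6 h arrays (12.2% of all genes). The exceptions were Pttg1 and Kif22, in both through vehicle 6 h replicate 2 alone (11.60 and 10.84). The order was described after the values were seen and is not tested.

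The 49 genes had 113 probe sets, 1 for each of 16 genes and several for 33. Of the 64 probe sets not used above, 24 fell with time and 0 rose, and 53 had a change below 0 with 1,25D at 48 h (median −0.19), of which 0 were called. The called 48 h responses of Nusap1, Cdc20 and Ccna2 were not called on any second probe set of the same gene; Ccna2's read −0.31 (adjusted p = 0.563).

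Related cell cycle genes outside the 50 were read from lists of the same arrays. Beside their counts, 8.75% of all genes were called lower with time and 9.84% higher. With 1,25D at 48 h 2.39% of all genes were called, 10.3% had an unadjusted p under 0.05 and 50.8% lay below 0. Of 24 other spindle and cytokinesis genes 17 fell with time and 0 were called with 1,25D at 48 h (9 at an unadjusted p under 0.05), and of 25 other kinetochore genes 12 fell and 0 were called (5 at an unadjusted p under 0.05). Tacc3, a partner of Aurora A, fell by 1.11 with time, Pbk, a mitotic kinase, by 0.78, Plk4, the kinase of centriole duplication, by 0.98, and the centromere genes Cenpq, Mis18a and Cenpn by 0.96, 0.67 and 0.82. Among 18 condensin and cohesin genes 6 fell with time, led by Cdca5 (sororin, −0.79), Smc2 (−0.94) and Ncapd2 (−0.99), and Ncaph2 rose; with 1,25D at 48 h 0 were called, 18 of 18 lay below 0, and the median was −0.31.

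Of 21 further checkpoint and APC/C genes, 6 fell with time, among them Trip13, the ATPase that remodels MAD2, by 1.48, Fbxo5 (EMI1), an APC/C inhibitor, by 0.84 and Spdl1 by 0.88, and Anapc13 rose by 0.50. Of all genes 8.75% were called lower with time and 9.84% higher, and 2.39% were called with 1,25D at 48 h. Among 14 other entry genes and brakes 6 fell with time, including Ccnf (1.37), Cks2 (0.70) and Bora (1.01), an activator of PLK1. Gadd45a, a stress-induced inhibitor of CDK1, rose in both comparisons: its group means were 5.97 ± 0.10 (SD, n = 3) in vehicle 6 h, 6.33 ± 0.49 (n = 3) in 1,25D 6 h, 7.0 ± 0.43 (n = 3) in vehicle 48 h and 8.10 ± 0.18 (n = 4) in 1,25D 48 h. It rose by 1.04 with time (SE 0.244, adjusted p = 0.0112) and by 1.09 with 1,25D at 48 h (SE 0.228, adjusted p = 0.0296), the only 1 of all the genes on these further cell cycle lists called at 48 h. The CDK inhibitors Cdkn1a and Cdkn1b had changes of 0.02 and −0.003 with the hormone at 48 h, not called.

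Factors that regulate these promoters, repressors among them, were read from 16 genes: those of the DREAM and B-Myb complexes, further E2F factors and NF-Y. With time 6 fell, led by Mybl2 (B-Myb), which read 9.11 ± 0.17 (SD, n = 3) in vehicle 6 h and 7.29 ± 0.06 (n = 3) in vehicle 48 h, a fall of 1.82 (SE 0.173, adjusted p = 1.09e-05), Tfdp1 (0.81) and E2f7 (1.26). Rbl2 (p130), the pocket protein of quiescent cells, rose by 0.99 (adjusted p = 0.0205). With 1,25D at 48 h 0 of the 16 were called, Mybl2 having −0.62 (adjusted p = 0.108). Beside these counts, 8.75% of all genes were called lower with time and 9.84% higher, and 2.39% were called with 1,25D at 48 h.

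The genes of G1/S and DNA replication were compared as the neighbouring phase. With time 32 of 39 fell (median −0.86), close in share and size to the 41 of 49 G2/M genes (median −0.84); Rrm2, Rfc5 and Orc6 fell by 1.18, 0.99 and 1.00. With 1,25D at 48 h 0 of 39 were called, 32 lay below 0, 4 had an unadjusted p under 0.05 and the median was −0.14. In the G2/M genes 49 of 49 lay below 0, 27 had an unadjusted p under 0.05 and the median was −0.29. Of all genes 8.75% were called lower with time and 2.39% were called with 1,25D at 48 h. With the hormone at 48 h, 50.8% of all genes lay below 0 and 10.3% had an unadjusted p under 0.05. Of genes in the signal range of the G2/M genes, 63.0% lay below 0. These counts are descriptions, and a difference between the phases was not tested.

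**Figure D5:**
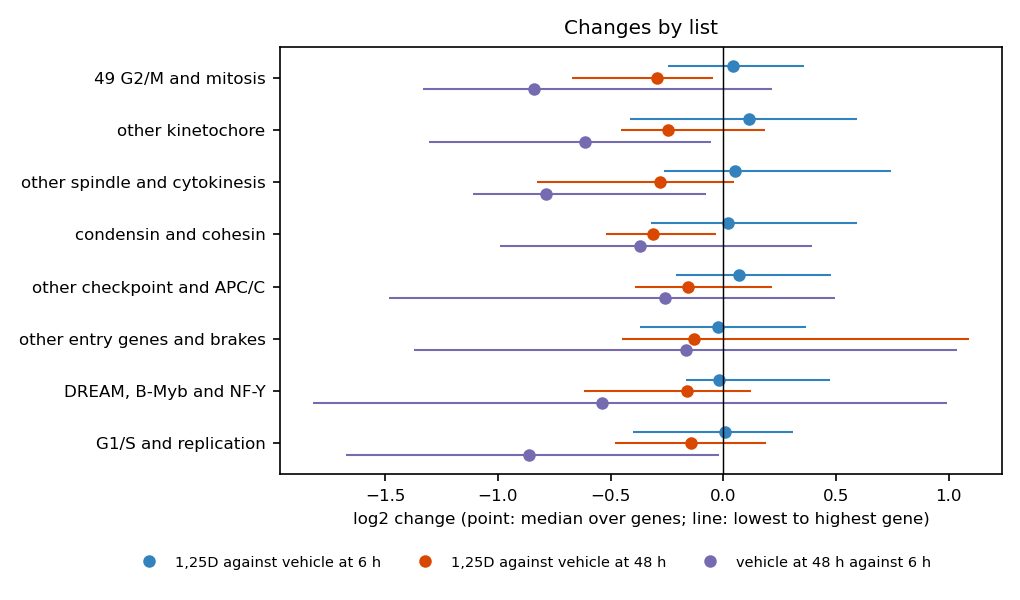
Median fitted log2 change (point) and the range from the lowest to the highest gene (line) for the 49 G2/M genes and 7 further cell cycle lists, in 3 comparisons. For time in vehicle the medians of the G2/M genes (−0.84) and of G1/S and replication (−0.86) lie close; for 1,25D at 48 h they lie at −0.29 and −0.14; at 6 h all medians are near 0.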

How the data were processed

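Messenger RNA was measured on 13 mouse arrays, 1 per RNA sample, grouped by sample title. The values as deposited by the authors are log2 signals from about 3.05 to 14.45. The submitters' processing notes name MAS5 without a version or role; how background and scaling were handled is not given in the sources used here. Of 45101 probe sets in the table, more than on the A chip that the study's design mentions, 64 control sets were left out. Nothing was added to or rescaled in the values, and detection calls were not used. Group means were fitted over all 13 arrays with limma 3.58.1 (R 4.3.3; eBayes with an intensity trend, two-sided), with Benjamini-Hochberg adjustment over 45037 probe sets. Calls, and the words rose and fell, mean an adjusted p under 0.05. Figures were drawn with matplotlib 3.10.9 (Python 3.11.15).

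Of the tested probe sets 34945 had 1 gene symbol, 932 several and 9160 none; the brightest single-symbol set stood for each of 18193 genes. The members, role groups and other lists were chosen with earlier results of these data known, so no list was tested as a whole. Array values are given for members called in a comparison (the 8 with the smallest p where more were called) and, in role groups without one, the member with the smallest p at 48 h; up to 3 called genes with the smallest p are named per other list. Kif11, Ube2c and Pttg1 were added after their values were seen, as extremes. The number of arrays limits the precision. On simulated data with 100 changed genes among 18193, 31 of 100 were recovered at a log2 change of −0.5 and 87 of 100 at −1 for 1,25D at 48 h, 33 and 83 at 6 h, and 21 and 69 for time in vehicle. The same simulations gave false calls too: 10 for 1,25D at 48 h, 6 at 6 h and 15 for time in vehicle. The data held 45037 probe sets, of which 600 were called for 1,25D at 48 h, 262 at 6 h and 5526 for time in vehicle. Since the adjustment depends on both numbers, the recovered and false counts need not hold for these data. Alternatives were quantile normalization, median centring, offsets, other variance settings, leaving out dim or multi-transcript probe sets, array weights, a replicate block, a fold threshold, the mean of all probe sets and leaving out arrays.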

Additional observations from a re-analysis of the deposited data

Results flagged for a closer look

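The group of 4 arrays, 1,25D at 48 h, was tested for a distant array in each of the 49 genes. The most extreme array lay far from the others in 2 genes (the gap exceeds Dixon's 95% critical value for 4 samples). Chance gives about 1 in 20, so 2 of 49 is no more than chance alone would give. The 2 gaps are therefore listed as descriptions only. Mad2l1 read 10.23 in replicate 4, above the others at 10.12 to 10.14, with a gap of 0.830 of the range. Nusap1 read 8.88 in replicate 4, below the others at 9.09 to 9.13, with a gap of 0.832. Replicate 4 is the array with the narrowest interquartile range, and its part in these values was not tested. Without it Nusap1 still fell with 1,25D at 48 h.

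The response of Nusap1 at 48 h minus that at 6 h was −0.81 (limma, SE 0.145, adjusted p = 0.0285), with 1,25D above vehicle in 3 of 3 arrays at 6 h and below it in 4 of 4 at 48 h. The call was lost in 14 of its 28 alternatives, with adjusted p between 0.0182 and 0.307, and the difference kept its sign in all 28.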

How the results depend on the processing

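The count of genes that fell with 1,25D at 48 h, 4, was 2 without the intensity trend, 8 with array weights, 0 with a fold beyond 1.2, 2 without the 2 arrays that stand apart (vehicle 6 h replicate 1 and 1,25D 48 h replicate 4), 0 when vehicle 48 h replicate 2 was left out too, and 0 to 4 when each array was left out in turn. It was 0 without vehicle 48 h replicate 1 or 2, 1 (Nusap1) without 1,25D 48 h replicate 1, 3 or 4, and 2 without 1,25D 6 h replicate 1 or 3 or vehicle 48 h replicate 3. The median at 48 h stayed between −0.36 and −0.26 over these arrays left out. The count for time in vehicle, 41, was 26 with a fold beyond 1.2, 27 of 39 without multi-transcript probe sets, and 33 to 42 without single arrays (33 without vehicle 48 h replicate 2); the median was −0.69 with the mean of all probe sets and −0.89 to −0.78 without single arrays. The 1 difference between the responses became 0 under median centring, 3 with array weights, 0 with a fold beyond 1.2, 0 without the 3 arrays and 0 or 1 without single arrays. At 6 h the count was 0 throughout, and the median went from 0.04 to −0.01 without vehicle 6 h replicate 1. The cause was not tested.

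Replicate numbers were not used as pairs in the main fit. Same-numbered deviations correlated between −0.53 and 0.48, and between 0.07 and 0.28 for 1,25D against vehicle at 6 h. Differently numbered arrays were not compared, so these values do not settle whether the numbers pair the samples. With the replicate block the counts were 0 at 48 h, 43 for time and 0 for the difference. Among the 13 genes with array values under the naming rule, no called change reversed under these alternatives. Signals near the dim end, and changes of 0.5 or less, are at the limit of what these arrays resolve.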
